A study of Mus musculus with 16 samples.

Results

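The guidance genes described here are semaphorins (Sema3a, Sema3f), a neuropilin (Nrp2), plexins (Plxna1, Plxna3), an ephrin receptor and ephrins (Epha5, Efna3, Efna5) and the Slit receptor Robo2. They were measured in sorted cells of the mouse olfactory mucosa. They were chosen by symbol from a list of 10 axon guidance genes, of which 9 have a probe set of their symbol among the 19505 genes of the array. The tenth, Nrp1, was not analysed here. Olfactory sensory neurons send their axons to the olfactory bulb, where the axons sort by the receptor they express. Secreted class 3 semaphorins act as repellents on axons that carry a neuropilin, which binds the ligand, and an A-type plexin, which passes the signal on. Ephrin-A proteins are held on the cell surface by a lipid anchor and are bound by EphA receptor kinases, and Robo receptors bind Slit proteins.

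In the mouse, these neurons set the levels of some guidance genes by the activity of their receptor. Epha5 and Efna5 are known as a pair with opposite levels in active and silent axons, like the adhesion genes Kirrel2 and Kirrel3, and Plxna1 and the neuropilin 1 gene vary with the cyclic AMP signal.

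All mice of the study, odor and vehicle alike, were S100a5-tauGFP reporter mice, whose green fluorescent protein (GFP) follows S100a5, an activity-raised calcium sensor gene of sensory neurons. The labels give no further detail of the construct, the alleles or the strain. There were 24 animals of both sexes aged 7 to 12 weeks, each alone in a chamber flushed with clean air at 3.1 L/min over 40 hours. From hour 26, pulses of 10 seconds followed each other every 20 min, of indole/ionone in the odor arm and of filtered air in the vehicle arm. The mucosa was dissociated and pooled from 3 mice at a time, and each pool was sorted by GFP. This gave 4 groups of 4 samples, namely GFP+ and GFP- cells of odor pools and GFP+ and GFP- cells of vehicle pools, each hybridised to a Clariom S array. The labels name no odorant dose and no ionone isomer. The fractions are sorts by reporter level and not purified cell types. Values are array levels as deposited, taken as log2 from their range. A gene passed where the p-value of limma, a linear model fitted across all genes, was under 0.05 after Benjamini-Hochberg adjustment over all 19505 genes.

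The fractions were checked with genes of the sort. S100a5 was higher in GFP+ cells, with a log2 difference of 1.31 ± 0.17 within odor pools (SE, n = 4 pools, adjusted p = 0.000184) and one of 1.27 ± 0.17 within vehicle pools (adjusted p = 0.000228). Kirrel2 was higher in both arms, at 0.94 ± 0.17 and 1.32 ± 0.17 (adjusted p = 0.00210 and 0.000165), while Kirrel3 did not pass in either arm alone, at -0.34 ± 0.14 and -0.23 ± 0.14 (adjusted p = 0.114 and 0.288). Omp, the marker of mature sensory neurons, lay at 18.50 ± 0.01 and 18.44 ± 0.07 in GFP+ and GFP- cells of odor pools (SD), near the top of the scale at 19.35. Of 12 listed markers of mature sensory neurons, 1 was higher in GFP+ cells in each arm. This was 8.33%, near the share of all genes (7.96% in odor and 8.86% in vehicle pools). Of 15 markers of immature neurons, 6 were lower in both arms (40%, where 10.6% and 10.8% of all genes were lower). Gap43, a growth cone protein, differed by -2.38 ± 0.17 in odor pools. Neutrophil markers were lower in 8 of 8, and the log2 of their summed signal was 8.28 to 10.02 in GFP+ cells of odor pools, against 18.06 to 19.36 in GFP- cells. Macrophage and dendritic cell markers were lower in 7 of 10 in odor pools and in 9 of 10 in vehicle pools. The GFP- sample of odor replicate 3 stood apart on the second principal component, at 58.9 against at most 24.6 in the others. In the pools numbered 3 of both arms, 3 Y-linked genes lay at or below 4.09, under the background medians of the arrays (5.63 to 6.05). In the other pools they lay above these medians, at 6.42 or more. The pools numbered 3 thus showed no male signal, and replicate number 3 goes with sex.

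Of the 9 members, 3 differed between GFP+ and GFP- cells within pools, and the same 3 did so in each arm. The receptor kinase gene Epha5 and the plexin gene Plxna3 were higher in GFP+ cells, and the ligand gene Sema3a was lower. The other 6 did not pass in either arm. The largest of the 3 was Epha5 in vehicle pools, at 2.0-fold. With median centring of the arrays, 4 members were higher and 0 lower in odor pools, and 2 were higher and 1 lower in vehicle pools. With that centring 8224 of all 19505 genes passed in odor pools (6458 higher, 1766 lower) and 5658 in vehicle pools (3823 higher, 1835 lower). Without it, 18.6% of all genes passed in odor pools (7.96% higher, 10.6% lower) and 19.7% in vehicle pools (8.86% higher, 10.8% lower). The median difference of the 9 was 0.12 in odor pools, against 0.11 over all genes, and 0.24 in vehicle pools, against 0.11.

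Windows around an annotated start of each of these 3 genes are shown, because these are the members whose difference passed in both arms. They come from RefSeq (GRCm38.p6), read 5′ to 3′ on the strand of the gene, and capitals mark CG dinucleotides. The window of Sema3a is chr5:13396534-13396833 (plus strand), in a gene that spans chr5:13124822-13603485. That of Plxna3 is chrX:74328816-74329115 (plus strand), in a gene that spans chrX:74328290-74344689. That of Epha5 is chr5:84417333-84417632 (minus strand), in a gene that spans chr5:84054761-84417818. All 3 windows lie within these spans. That of Sema3a lies far from the 5′ end of the gene, and those of Plxna3 and Epha5 lie near it, so the windows are not at like positions.
Sema3a: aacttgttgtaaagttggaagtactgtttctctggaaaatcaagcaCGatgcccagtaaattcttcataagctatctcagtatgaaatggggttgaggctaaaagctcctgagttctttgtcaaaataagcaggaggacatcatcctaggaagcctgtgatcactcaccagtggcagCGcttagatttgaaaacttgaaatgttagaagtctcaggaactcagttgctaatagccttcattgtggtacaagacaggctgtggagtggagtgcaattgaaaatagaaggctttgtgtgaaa
Plxna3: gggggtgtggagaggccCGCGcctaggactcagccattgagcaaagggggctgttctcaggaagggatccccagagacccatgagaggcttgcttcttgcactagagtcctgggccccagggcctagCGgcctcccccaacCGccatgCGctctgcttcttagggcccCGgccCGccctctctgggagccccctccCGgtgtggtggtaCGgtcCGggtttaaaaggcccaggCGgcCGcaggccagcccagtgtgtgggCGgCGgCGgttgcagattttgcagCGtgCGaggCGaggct
Epha5: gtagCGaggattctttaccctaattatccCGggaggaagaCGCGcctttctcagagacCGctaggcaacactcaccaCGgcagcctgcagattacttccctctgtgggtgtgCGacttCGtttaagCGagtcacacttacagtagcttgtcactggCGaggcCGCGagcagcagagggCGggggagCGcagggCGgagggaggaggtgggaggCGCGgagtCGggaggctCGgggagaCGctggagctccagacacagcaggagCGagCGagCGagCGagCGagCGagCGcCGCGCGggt
Sema3a has 2 CG dinucleotides and a GC content of 41.3% in its window, which is not at the 5′ end of the gene. Plxna3 has 18 and 67.7%, and Epha5 has 30 and 64.3%, where the median over 32851 windows of 300 bases was 7 and 52.7%. The cyclic AMP response element half-site TGACG, searched on both strands, was in 0 of 10 windows of the 7 members with an entry and in 20.8% of all windows. Plxna1 and Sema3f have no entry in the table. These are descriptions of the letters and say nothing about the binding of a factor.

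**Figure D1:**
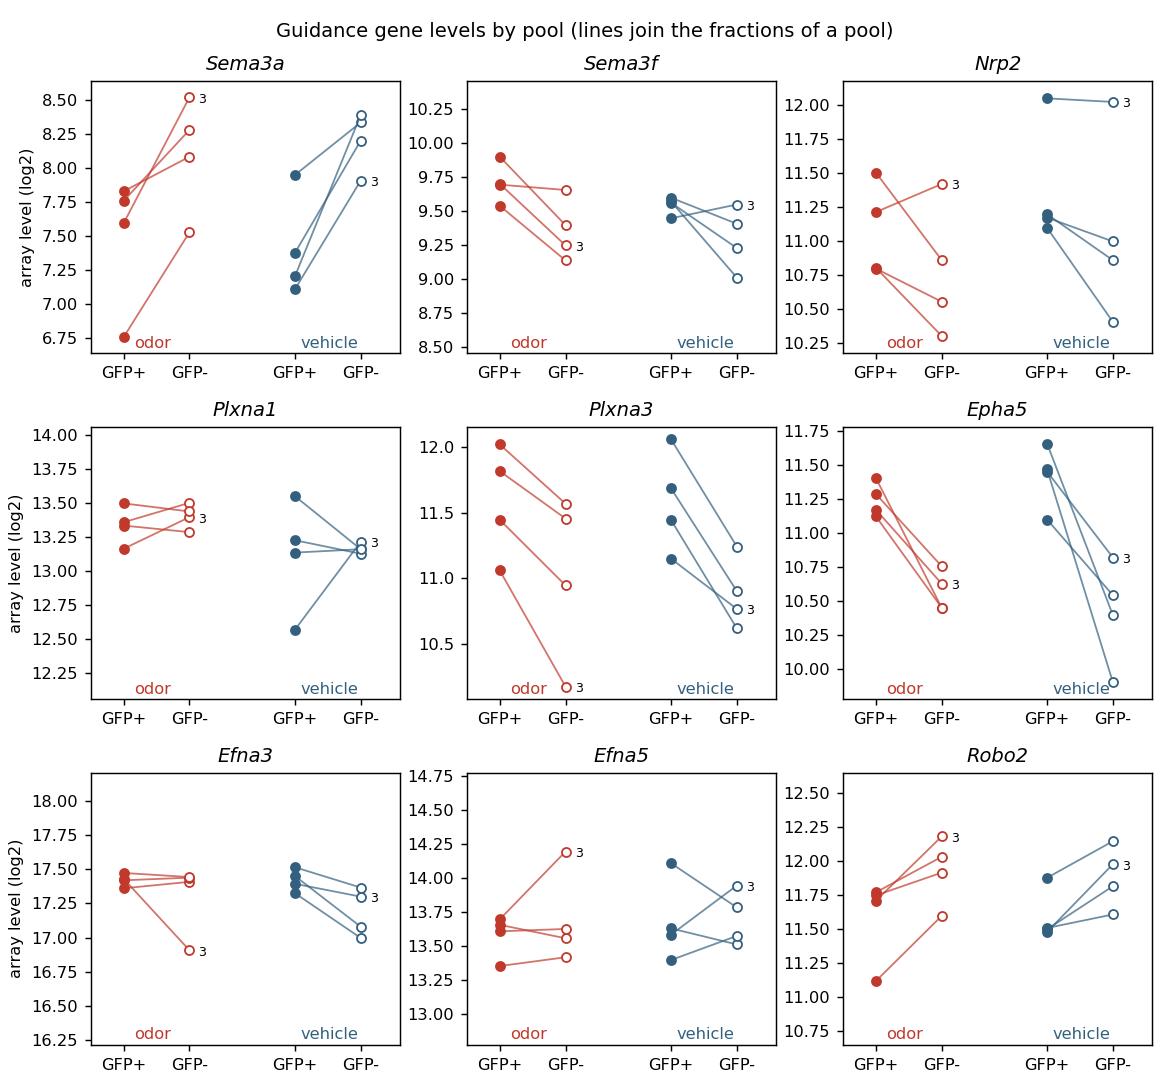
Log2 array level of each of the 9 guidance genes (vertical axis, each panel with its own range) in GFP+ (filled) and GFP- cells (open) of the 4 odor pools (red) and the 4 vehicle pools (blue). Each line joins the fractions of 1 pool, and the digit 3 marks the pools numbered 3. All lines of Sema3a and Robo2 run upward to GFP- cells, and all lines of Plxna3 and Epha5 run downward.

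Sema3a encodes a secreted repellent of axons that carry neuropilin 1. In odor pools its log2 level in GFP+ cells was 6.76, 7.76, 7.60 and 7.83 in replicates 1 to 4, against 7.53, 8.28, 8.52 and 8.08 in GFP- cells of the same pools. In vehicle pools it was 7.38, 7.95, 7.11 and 7.20 in GFP+ cells, against 8.20, 8.34, 7.91 and 8.39 in GFP- cells. The GFP+ sample was the lower one in 8 of 8 pools, although the ranges of the fractions overlap in both arms. Among all genes, 11.4% were lower in GFP+ cells in 8 of 8 pools. Within pools Sema3a was lower by 1.53-fold in GFP+ cells of odor pools, a log2 difference of -0.62 ± 0.16 (SE, adjusted p = 0.0203). In vehicle pools it was lower by 1.74-fold, at -0.80 ± 0.16 (adjusted p = 0.00436). The call in odor pools ended without replicate 1 (adjusted p = 0.0887), 2 (0.0514) or 3 (0.0863) and with median centring of the arrays (-0.39, adjusted p = 0.0719), which moved the median of all genes to 0.34. Without the pools numbered 3 of both arms it was -0.52 (adjusted p = 0.101), and it also ended with quantile normalization (0.0586) and without the pool as a block (0.110). The call in vehicle pools remained in all 17 alternatives. In bulk samples such as these, fewer cells that express a gene and less RNA per cell cannot be told apart.

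Sema3f encodes the semaphorin that binds neuropilin 2 and, in the mouse, is carried by axons from the dorsal olfactory epithelium. Its log2 level in odor pools was 9.54, 9.70, 9.70 and 9.90 in GFP+ cells, against 9.14, 9.66, 9.25 and 9.40 in GFP- cells. The vehicle pools had 9.57, 9.56, 9.45 and 9.60 in GFP+ cells, against 9.01, 9.23, 9.55 and 9.41 in GFP- cells. It was higher in GFP+ cells in 7 of 8 pools, with vehicle replicate 3 as the exception. Its differences of 0.35 ± 0.15 in odor pools (adjusted p = 0.125) and 0.25 ± 0.15 in vehicle pools (adjusted p = 0.281) did not pass, and with median centring the first was 0.57 (adjusted p = 0.0139).

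Nrp2 is the neuropilin that binds Sema3f, and in the mouse its level rises across the epithelium from dorsal to ventral. In odor pools it lay at 10.80, 11.50, 11.21 and 10.80 in GFP+ cells, against 10.30, 10.86, 11.42 and 10.55 in GFP- cells. The vehicle pools had 11.09, 11.19, 12.05 and 11.17 in GFP+ cells, against 10.40, 10.86, 12.02 and 10.99 in GFP- cells. Vehicle replicate 3 was the highest in both fractions, and odor replicate 3 was the highest in GFP- cells of its arm. The difference between fractions was 0.30 ± 0.17 in odor pools (adjusted p = 0.255) and 0.31 ± 0.17 in vehicle pools (adjusted p = 0.240). In odor pools it was 0.52 with median centring (adjusted p = 0.0268). Genes of the zones that the epithelium is divided into did not pass either. Nqo1, a dorsal enzyme gene, differed by 0.08 ± 0.12 within odor pools and -0.08 ± 0.12 within vehicle pools (adjusted p = 0.697 and 0.722). Acsm4, also dorsal, differed by -0.06 ± 0.14 and -0.02 ± 0.14 (adjusted p = 0.799 and 0.928), and Ncam2, an adhesion gene of the ventral zones, by 0.21 ± 0.16 and 0.19 ± 0.16 (adjusted p = 0.406 and 0.480).

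Of the plexin genes, which encode the signalling receptors of class 3 semaphorins, Plxna3 passed and Plxna1 did not. Plxna3 lay at 12.02, 11.45, 11.06 and 11.82 in GFP+ cells of odor pools, against 11.57, 10.94, 10.17 and 11.45 in GFP- cells. In vehicle pools it lay at 11.69, 11.44, 11.15 and 12.06 in GFP+ cells, against 10.90, 10.62, 10.77 and 11.24 in GFP- cells. GFP+ cells held the higher level in 8 of 8 pools, as did 12.8% of all genes. Plxna3 was 1.46-fold higher in odor pools, at 0.55 ± 0.14 (adjusted p = 0.0178), and 1.63-fold higher in vehicle pools, at 0.70 ± 0.14 (adjusted p = 0.00401). The call in odor pools ended without replicate 2 (adjusted p = 0.0527) or 3 (0.0732). Without the pool as a block neither arm passed (adjusted p = 0.210 in odor and 0.103 in vehicle pools). In the pools numbered 3, which showed no male signal, this X-linked gene had its lowest GFP+ level of each arm, 11.06 and 11.15. In GFP- cells replicate 3 was the lowest of the odor pools (10.17) but not of the vehicle pools, where replicate 2 was lower (10.62 against 10.77). The part of the sex or other makeup of the pools numbered 3 was not tested. Without the pools numbered 3 the Plxna3 difference was 0.44 in odor pools (adjusted p = 0.0476) and 0.81 in vehicle pools (adjusted p = 0.00225). Plxna1, which encodes the related plexin A1, differed by -0.07 ± 0.17 within odor pools (95% interval -0.43 to 0.30) and -0.05 ± 0.17 within vehicle pools (-0.41 to 0.32), and the sign turned with median centring, at 0.16 and 0.10. It was lower in GFP+ cells in 4 of 8 pools and higher in the other 4. Its levels ran from 12.57 to 13.55 over all arrays, with the lowest in GFP+ cells of vehicle replicate 3.

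Epha5 encodes an EphA receptor kinase that binds ephrin-A ligands. Its log2 level in odor pools was 11.28, 11.40, 11.17 and 11.12 in GFP+ cells, against 10.75, 10.45, 10.63 and 10.45 in GFP- cells. The vehicle pools had 11.47, 11.10, 11.45 and 11.65 in GFP+ cells, against 9.90, 10.54, 10.82 and 10.39 in GFP- cells. No GFP+ sample fell within the range of the GFP- samples over all 16 arrays, as held for 11.3% of all genes. Within odor pools 21.6% of all genes were apart in this way, and within vehicle pools 21.9%, and Epha5 was the only member apart in either. Epha5 was 1.60-fold higher in GFP+ cells of odor pools, at 0.68 ± 0.18 (adjusted p = 0.0216), and 2.0-fold higher in vehicle pools, at 1.00 ± 0.18 (adjusted p = 0.00181). The call in odor pools ended without replicate 1 (adjusted p = 0.0514), 2 (0.0968) or 4 (0.0686) and with all probes tested (0.0501), and it remained without the pools numbered 3 (0.72, adjusted p = 0.0454). That in vehicle pools remained in all 17 alternatives. The GFP+ cells averaged 11.24 ± 0.13 in odor and 11.42 ± 0.23 in vehicle pools (SD, n = 4), above the GFP- cells at 10.57 ± 0.15 and 10.41 ± 0.38. The arms within a fraction did not differ beyond their spread.

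The ephrin-A genes, whose products bind EphA receptors, did not pass. Efna5 differed by -0.12 ± 0.15 within odor pools (95% interval -0.46 to 0.22) and -0.02 ± 0.15 within vehicle pools (-0.36 to 0.32). It was higher in GFP+ cells in 3 of 8 pools, with GFP+ levels between 13.35 and 14.11 and GFP- levels between 13.42 and 14.19, and median centring turned the sign, at 0.10 and 0.13. Efna3 differed by 0.12 ± 0.14 (-0.18 to 0.43) and by 0.24 ± 0.14 (-0.07 to 0.54). Its levels, 16.91 to 17.52 over all arrays, lie near the top of the scale, and in odor pools 1 sample stood apart, GFP- cells of replicate 3 at 16.91. Without the pools numbered 3 its difference in odor pools was -0.012.

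Robo2 is a receptor of Slit repellents and, in the mouse, is higher in dorsal sensory neurons. It lay at 11.11, 11.77, 11.70 and 11.74 in GFP+ cells of odor pools, against 11.59, 12.03, 12.18 and 11.91 in GFP- cells. The vehicle pools had 11.51, 11.87, 11.48 and 11.50 in GFP+ cells, against 11.60, 12.14, 11.97 and 11.81 in GFP- cells. GFP+ cells held the lower level in 8 of 8 pools. The differences were small, at -0.35 ± 0.13 in odor pools (adjusted p = 0.0888) and -0.30 ± 0.13 in vehicle pools (adjusted p = 0.141), and neither passed. With quantile normalization the first was -0.40 (adjusted p = 0.0475).

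**Figure D2:**
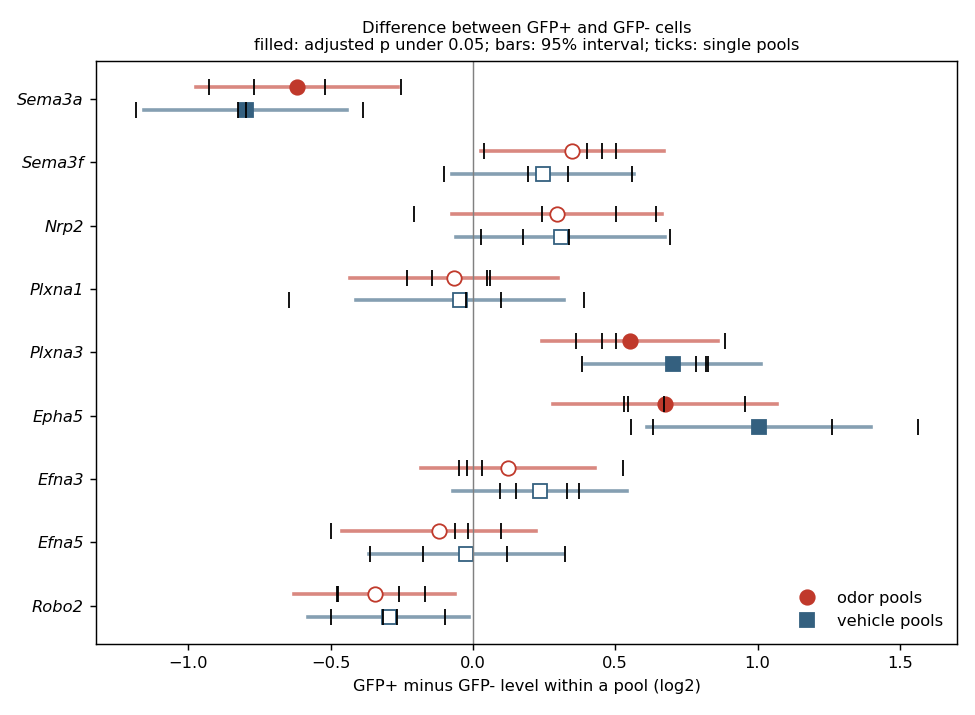
GFP+ minus GFP- log2 difference of each guidance gene (horizontal axis) in odor pools (red circles) and vehicle pools (blue squares), with 95% intervals as bars and single pools as ticks. Filled symbols passed at an adjusted p under 0.05. Sema3a passed below 0, and Plxna3 and Epha5 above 0, in both arms.

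Averaging both arms in the same fit, a comparison chosen after the values were seen, used all 8 pools. In it 5 of 9 members passed, where 32.2% of all genes did. Epha5 (0.84 ± 0.13, adjusted p = 0.000351), Plxna3 (0.63 ± 0.10, adjusted p = 0.000522) and Sema3f (0.30 ± 0.10, adjusted p = 0.0469) were higher in GFP+ cells, and Sema3a (-0.71 ± 0.11, adjusted p = 0.000594) and Robo2 (-0.32 ± 0.09, adjusted p = 0.0198) were lower. At 0.30 ± 0.12 Nrp2 did not pass (adjusted p = 0.0732), but did without odor replicate 3 (0.39, adjusted p = 0.0244), without the pools numbered 3 (0.43, adjusted p = 0.0191) and with median centring (0.49, adjusted p = 0.00449). Efna3, at 0.18 ± 0.10 (adjusted p = 0.184), passed with median centring (0.37, adjusted p = 0.0144). The call of Sema3f ended in 7 of 11 alternatives, among them 6 in which 1 pool was left out (adjusted p up to 0.111). That of Robo2 ended with median centring (-0.13, adjusted p = 0.213), without odor replicate 1 (adjusted p = 0.0562) and without the pools numbered 3 (0.0676). Epha5, Plxna3 and Sema3a kept their calls in all 11. Kirrel3, a sort check that passed in neither arm alone, was lower in GFP+ cells in this average, at -0.28 ± 0.10 (adjusted p = 0.0444).

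Markers of cell types were also compared between the fractions. All members lay above the background of the array, whose medians over 23 background probe sets were 5.63 to 6.05, with the lowest member value at 6.76. The log2 summed signal of the 12 mature neuron markers was 21.05 to 21.07 in GFP+ cells of odor pools, against 20.88 to 20.99 in GFP- cells, and that of the 15 immature neuron markers was 18.86 to 18.91, against 18.75 to 18.94. In vehicle pools the mature markers summed to 21.05 to 21.08 in GFP+ and 20.59 to 21.03 in GFP- cells. The immature markers summed to 18.79 to 18.98 in GFP+ and 18.61 to 19.04 in GFP- cells. Each sum adds linear signal, so the brightest genes of a list set most of it. Among the immature markers these were Ebf2, Ncam1, Lhx2 and Ebf3, at 16.20 to 16.86 in GFP+ cells of odor pools, which did not pass. Dimmer markers such as Gap43, at 7.52 there, hardly move the sum, so like sums do not show a like content of immature neurons. The 6 immature markers that were lower were Gap43, Dpysl3, Hdac2, Nhlh2, Nhlh1 and Gng8, and the other 9 had values from -0.52 (Dpysl5) to 0.23 (Dcx) in odor pools and from -0.39 (Stmn2) to 0.31 (Ebf2) in vehicle pools. Nhlh1 lay at 4.42 in GFP+ cells of odor pools, under the background medians, against 9.39 in GFP- cells. Gng8 lay at 6.02 in GFP+ cells, within those medians, against 10.45 in GFP- cells.

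Sustentacular cell markers were lower in GFP+ cells in 6 of 9 in each arm, and their log2 sum was 14.80 to 15.20 in GFP+ cells of odor pools, against 16.35 to 16.54 in GFP- cells. Microvillar and brush cell markers were lower in 7 of 7 in each arm, with sums of 8.03 to 8.55 in GFP+ cells of odor pools, against 11.13 to 11.87 in GFP- cells. Globose basal and dividing cell markers were also lower in 7 of 7, with sums of 13.81 to 14.00 in GFP+ cells of odor pools, against 14.32 to 14.97 in GFP- cells. Macrophage and dendritic cell markers summed to 9.58 to 10.97 in GFP+ cells of odor pools, against 13.99 to 15.67 in GFP- cells. Respiratory ciliated cell markers went the other way and were higher in 4 of 6 in odor pools and 3 of 6 in vehicle pools. The ranges of their log2 sums overlapped between the fractions in both arms. In odor pools these sums averaged 15.84 in GFP+ cells, against 15.72 in GFP- cells. In vehicle pools they were 15.78 to 16.08 in GFP+ cells (mean 15.91), against 15.66 to 15.89 in GFP- cells (mean 15.76). Of 7 ensheathing glia markers 6, and of 9 endothelial markers 7 or 8, lay under the background median in all 4 samples of each group. Of all genes, 7.96% were higher and 10.6% lower in GFP+ cells of odor pools, and 8.86% and 10.8% in vehicle pools. The part of any of these cell types in the differences of the guidance genes was not tested.

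Odor exposure was set against filtered air in each fraction. None of the 9 members passed in GFP+ cells, in GFP- cells or in the difference between them. This was 0 by limma in each case, with 0 of 9 at an unadjusted p under 0.05 as well. Over all genes 0% passed in GFP+ cells, 0.00513% in GFP- cells and 0% in the difference, while 5.49%, 3.57% and 3.35% had an unadjusted p under 0.05. The intervals show how large a change these 4 pools per arm leave possible. In GFP+ cells Nrp2 had a difference of -0.30 ± 0.24 (95% interval -0.82 to 0.22) and Plxna1 one of 0.22 ± 0.19 (-0.21 to 0.65). Epha5 differed by -0.17 ± 0.15 (-0.50 to 0.15), Sema3f by 0.16 ± 0.12 (-0.11 to 0.44) and Sema3a by 0.08 ± 0.26 (-0.49 to 0.64). For Efna3 the interval was narrow, at -0.25 to 0.25, and Plxna3 (-0.53 to 0.53), Efna5 (-0.47 to 0.27) and Robo2 (-0.39 to 0.38) also lay around 0. These intervals come from the fit without a block by replicate number. With that block the differences in GFP+ cells were the same, their SE ran from 0.13 (Efna3 and Sema3f) to 0.22 (Sema3a), and no member passed (adjusted p = 0.847 for Nrp2, the lowest).

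In GFP- cells the member with the smallest p was Plxna1. It lay at 13.50, 13.29, 13.40 and 13.44 in GFP- cells of odor pools, against 13.16, 13.13, 13.22 and 13.16 in GFP- cells of vehicle pools. These samples do not overlap, as held for 2.48% of all genes in GFP- and 3.21% in GFP+ cells, and no other member was apart in this way in either fraction. The difference of 0.24 ± 0.14 did not pass (95% interval -0.06 to 0.54, unadjusted p = 0.105, adjusted p = 0.9997). The SD of these samples was 0.09 in odor and 0.04 in vehicle pools. The SE of 0.14 also draws on the variance of all other genes, so it is not their spread alone. The size of the GFP+ over GFP- difference did not change beyond its error either. In odor minus vehicle pools it differed by -0.33 ± 0.25 for Epha5 (-0.88 to 0.23), by 0.18 ± 0.23 for Sema3a (-0.32 to 0.68) and by -0.15 ± 0.20 for Plxna3 (-0.59 to 0.28).

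**Figure D3:**
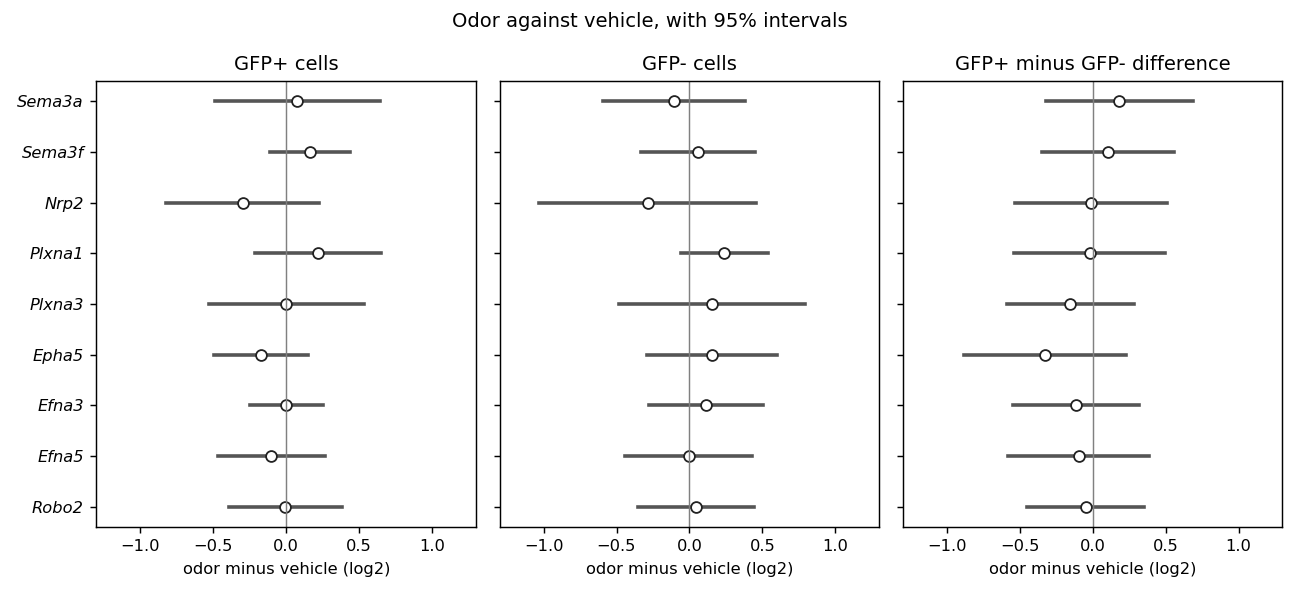
Odor minus vehicle log2 difference of each guidance gene (horizontal axis) in GFP+ cells, in GFP- cells and in the GFP+ minus GFP- difference, with 95% intervals. Open circles mark differences that did not pass, and all 9 are open in each panel.

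Sema3a and Robo2, a ligand and a receptor of different systems, varied together over the GFP+ samples. Over the 8 GFP+ arrays their log2 levels correlated at r = 0.973 (rho = 0.976), and at r = 0.958 without the 2 samples farthest from the median of Sema3a. Odor replicate 1 was the lowest for both genes, and vehicle replicate 2 the highest. Of the 19504 other genes, Robo2 ranked 2 by correlation with Sema3a in these arrays, behind Srebf2 (r = 0.979). In the 8 GFP- arrays the correlation was r = 0.609 (rho = 0.619, r = 0.520 without the 2 farthest), and Robo2 ranked 1058. Whether the fractions differ in this was not tested. The pair was 1 of 36 among the members and was picked for its size, arrays of 1 pool share their mice, and an arm holds too few pools for a value of its own, so these are descriptions without a test.

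**Figure D4:**
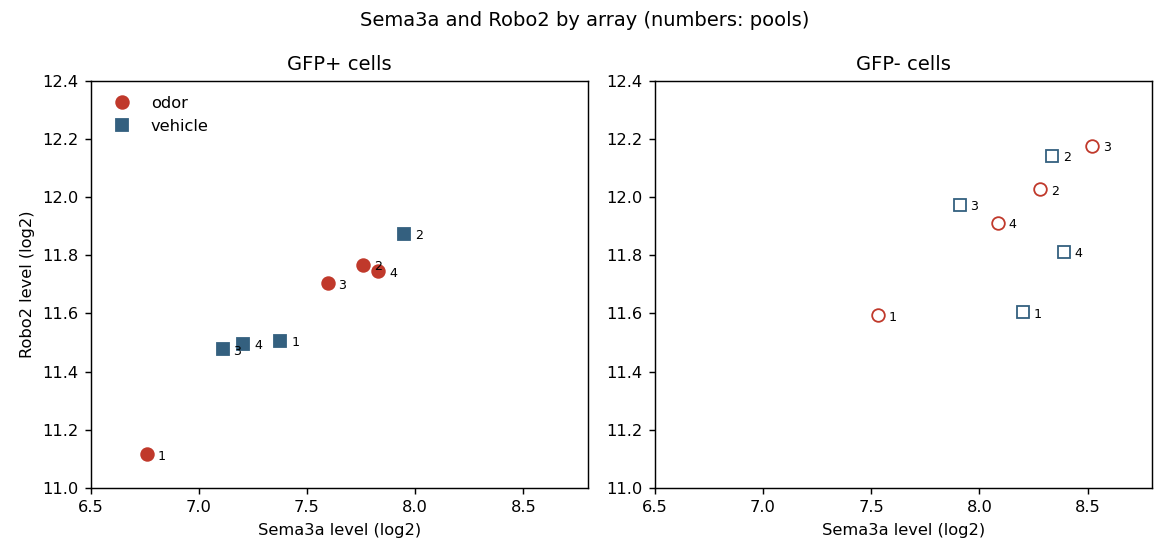
Log2 level of Robo2 (vertical axis) against that of Sema3a (horizontal axis) in the 8 GFP+ samples (left, filled) and the 8 GFP- samples (right, open). Red circles are odor pools, blue squares are vehicle pools and digits give the replicate. The GFP+ samples lie along a line (r = 0.973), and the GFP- samples scatter more (r = 0.609).

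Over all 16 arrays, where the difference between the fractions enters, the genes most like Sema3a were Tmeff1 (r = 0.892), Robo2 (0.885) and St3gal1 (0.854). Those most like Plxna3 were Mmachc (0.939), Ppil6 (0.936) and 1700013F07Rik (0.936), and those most like Epha5 were Xkr6 (0.942), Cbs (0.935) and Whrn (0.929).

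The wider families were set beside the members with a list of 63 further semaphorins, plexins, ephrins, Eph receptors, Slits, Robos and growth cone genes, of which 61 were measured. In odor pools 8 were higher and 8 lower in GFP+ cells (26.2%, against 18.6% of all genes). In vehicle pools 11 were higher and 6 lower (27.9%, against 19.7%), and 7 were higher and 6 lower in both arms. The median difference of the 61 was 0.01 in odor pools and 0.05 in vehicle pools, against 0.11 over all genes in each. These counts depend on single pools. In odor pools 10 passed without odor replicate 1 or 2 and 9 with all probes tested. In vehicle pools 11 passed without vehicle replicate 1, and 9 without vehicle replicate 2 or 4.

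The further semaphorins that passed, unlike Sema3a, were all higher in GFP+ cells. They were 1 of 5 other class 3 genes in each arm, and 4 of 12 genes of the other classes in odor and 3 of 12 in vehicle pools. Among all genes 7.96% were higher and 10.6% lower in odor pools, and 8.86% and 10.8% in vehicle pools. The median difference was 0.03 and 0.15 for the 5 and 0.09 and 0.14 for the 12, against 0.11 over all genes. Sema3e, a class 3 ligand that can act through plexin D1, was higher by 1.06 ± 0.15 within odor pools (adjusted p = 0.000402) and 0.96 ± 0.15 within vehicle pools (adjusted p = 0.000816). Sema7a, which is membrane-anchored, was higher by 0.64 ± 0.13 and 0.45 ± 0.13, and the transmembrane Sema4d by 0.62 ± 0.17 and 0.79 ± 0.17. Sema6c was higher by 0.68 ± 0.16 and 1.03 ± 0.16. Sema6d passed in odor pools at 0.86 ± 0.25 and had a value of 0.51 ± 0.25 in vehicle pools (adjusted p = 0.189), and the difference between the arms was 0.35 ± 0.35 (adjusted p = 1).

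Of 7 other plexins, 2 were higher and 1 lower in each arm (42.9%, where 18.6% of all genes passed in odor pools and 19.7% in vehicle pools). Plxnb3 was higher by 0.90 ± 0.16 in odor and 1.07 ± 0.16 in vehicle pools, Plxnb1, named after its values were seen, by 0.44 ± 0.14 and 0.51 ± 0.14, and Plxnc1, a receptor of Sema7a, was lower, at -0.72 ± 0.15 and -0.70 ± 0.15. Of 6 other ephrins, Efnb2 (-1.11 ± 0.16 and -0.72 ± 0.16) and Efna4 (-0.62 ± 0.20 and -0.61 ± 0.20) were lower in both arms, and Efna2 was higher in vehicle pools (0.70 ± 0.20, adjusted p = 0.0332). In odor pools Efna2 had a value of 0.64 ± 0.20 (adjusted p = 0.0502). Thus 33.3% of these ephrins passed in odor pools and 50% in vehicle pools. In GFP+ cells Efnb2 lay at 4.85 in odor and 5.57 in vehicle pools, under the background medians, so the size of its difference is limited by them. Of 12 other Eph receptors, 1 was higher and 2 were lower in odor pools (25%), and 1 was higher and 1 lower in vehicle pools (16.7%). These shares are near those of all genes. The higher Eph receptor was Epha7 in both arms, at 0.48 ± 0.14 and 0.59 ± 0.14, and was named after its values were seen. The lower ones, Epha4 (in odor pools) and Ephb4 (in both), lay under the background in both fractions, at 3.12 and 4.75 in GFP+ cells of odor pools, against 4.04 and 5.40 in GFP- cells, and no size is read from them.

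Of 6 Slits and other Robos, 0 passed in odor pools by limma and 1 in vehicle pools, Slit1, a ligand of Robo2, at 0.55 ± 0.17 (adjusted p = 0.0482), which was also named after its values were seen. This was 0% and 16.7% of the 6, where 18.6% and 19.7% of all genes passed.

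The list of semaphorin signalling inside the growth cone held the largest difference of the 61 in both arms. Of its 13 genes, 0 were higher and 3 lower in odor pools (23.1%), and 2 were higher and 2 lower in vehicle pools (30.8%). Of all genes 18.6% and 19.7% passed. Only some of those that passed are named here. Dpysl3, a relative of the protein that carries the Sema3a signal to the cytoskeleton and also a listed marker of immature neurons, was lower by 13.9-fold in odor pools (-3.80 ± 0.16, adjusted p = 2.05e-08) and 19.5-fold in vehicle pools (-4.29 ± 0.16, adjusted p = 9.49e-09). Mical1, an oxidase that acts on actin after semaphorin signals, was also lower, at -1.13 ± 0.21 and -1.55 ± 0.21, with GFP+ levels of 4.80 and 4.34 under the background medians, which limit the size of its difference. Farp2, a plexin-associated exchange factor, was higher in vehicle pools (0.75 ± 0.24, adjusted p = 0.0487) and had a value of 0.54 ± 0.24 in odor pools (adjusted p = 0.149). In odor against vehicle, 0 of 61 passed by limma in each fraction and in the difference, with 6 in GFP+ cells, 4 in GFP- cells and 3 in the difference at an unadjusted p under 0.05.

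**Figure D5:**
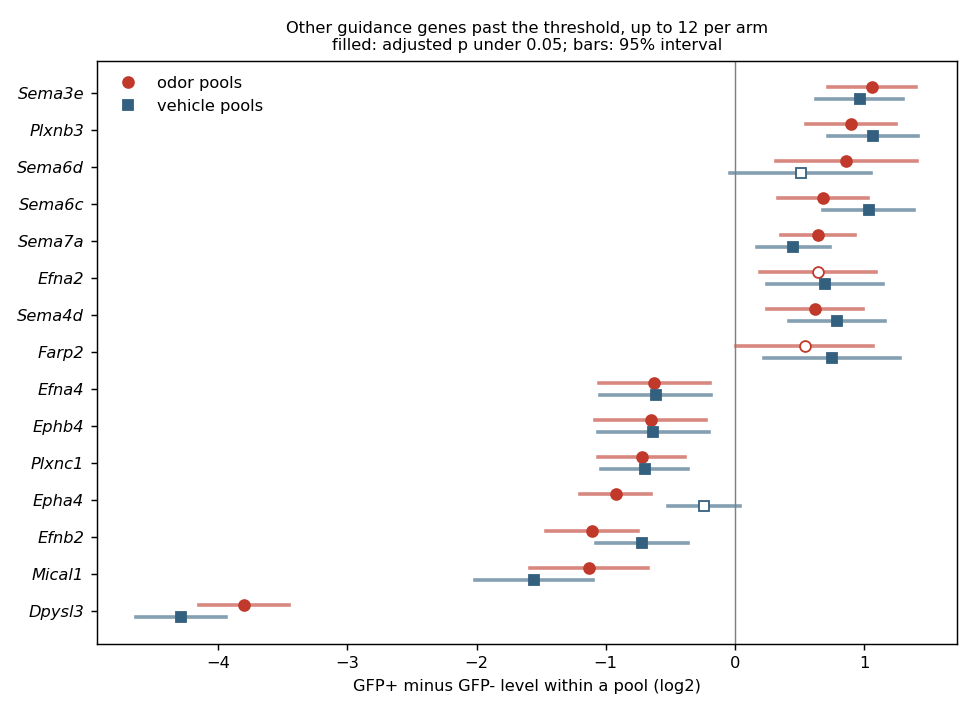
GFP+ minus GFP- log2 difference (horizontal axis) of further guidance genes past the threshold in an arm, up to 12 per arm, in odor pools (red circles) and vehicle pools (blue squares) with 95% intervals. Filled symbols passed, and Dpysl3 lies far below the others at -3.80 and -4.29.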

How the data were processed

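Each of the 16 samples was measured on 1 Clariom S array from 50 to 100 ng of total RNA, per the labels. The authors made the deposited values with Affymetrix Expression Console, per the submitters' processing notes, whose version and settings for background, normalization and summary are not stated there. The deposited values were taken as log2, inferred from their range (1.67 to 19.35), and array medians were 6.05 to 6.39. Of 28846 probe sets, 19572 carried a single gene symbol, 0 carried several and 9274 were unnamed here. For the 55 genes with several, none of them a member, the probe set with the highest mean was used, which left 19505 genes. The number of arrays limits the precision.

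GFP+ and GFP- samples of a pool were matched by the pool code in the titles. Both of the last vehicle pools are numbered 3 in their titles, and the one with the higher pool code was called 4 here. The fractions of a pool deviated together from their group means (r = 0.109 to 0.249). Differences within the 8 pools, and odor against vehicle in each fraction, were fitted with limma 3.58.1 in R 4.3.3, with two-sided p-values adjusted after Benjamini and Hochberg over the 19505 genes, at a threshold of 0.05. Each SE comes from the moderated variance shared by both arms. The p-values rest on the spread between pools, each of 3 mice, but not on that alone. The moderated variance draws the spread of each gene toward a value shared by all genes. Odor and vehicle pools share replicate numbers. The correlation of deviations between same-numbered samples was 0.114 to 0.242 over GFP+ samples, 0.066 to 0.332 over GFP- samples and 0.097 to 0.305 over differences. It was above 0.1 in every pair of GFP+ samples only. The values printed for odor against vehicle come from the fit without a block by replicate number, in which no samples of the arms were paired. The fit with that block is an alternative.

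The members and lists were chosen with earlier results of these data known. The text names all members, the further guidance genes past the threshold (the 12 with the largest differences per comparison), the sort checks and the 3 genes most correlated with each member that passed. Other genes were named after their values were seen. The fits were also run on simulated data with known changes, with independent noise per array and no pool effect. Such data cannot test the pairing by pool. Alternatives were the scaling, the probe sets tested, a filter on 7698 dim genes, the variance prior, array weights, blocks and pools left out.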

Additional observations from a re-analysis of the deposited data

Results flagged for a closer look

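Of 54 sets of 4 values (9 genes in 4 groups and 2 sets of pool differences each), 6 held a value far from the other 3 by Dixon's criterion, where chance gives about 1 in 20. Nrp2 in GFP+ cells of vehicle replicate 3 lay at 12.05, with the next at 11.19. Robo2 in GFP+ cells lay at 11.11 in odor replicate 1, with the next at 11.70, and at 11.87 in vehicle replicate 2, with the next at 11.50. Efna3 in GFP- cells of odor replicate 3 lay at 16.91, with the next at 17.41, and its difference in that pool was 0.53, with the next at 0.03. The Plxna3 difference of vehicle replicate 3 was 0.38, with the next at 0.78. No member had pools of the arms on opposite sides of 0 throughout, and none passed the test of odor against vehicle in the difference.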

How the results depend on the processing

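The number of pools and the scaling set the limits of these results. The 3 members called in odor pools became 1 without the pool as a block (setting with no replicate block) and 0 to 3 without 1 pool, whereas vehicle pools gave 3 to 3. No paired block by replicate number in odor against vehicle called a member in any fraction. The 16 and 17 further guidance genes called became 10 to 16 and 9 to 17 without 1 pool, and 9 in odor pools with all probes tested. All genes called in odor pools were 3620, and 8224 with median centring, 78.5% of them higher in place of 42.9%. In vehicle pools this split was 67.6% in place of 45.1%. The 1 gene called in GFP- cells became 0 with all probes tested and without the pools numbered 3, and 0 to 1 without 1 pool.

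Of the calls on members, those of Sema3a in odor pools remained in 10 of 17 alternatives (adjusted p = 0.0143 to 0.110), Plxna3 in 14 (0.00312 to 0.210) and Epha5 in 13 (0.00297 to 0.0968), none with the sign turned. In vehicle pools they remained in 17, 16 and 17. Where members had no call, 70 of 707 alternatives turned the sign, none of them past the threshold, and 7 passed the threshold with the sign kept. With median centring, the sign turned for Plxna1 (0.16) and Efna5 (0.10) within odor pools, Plxna1 (0.10) and Efna5 (0.13) within vehicle pools, Nrp2 (0.061), Plxna1 (0.052) and Robo2 (0.024) in the difference, Efna3 (0.041) and Robo2 (0.037) in GFP+ cells, Plxna1 (0.13) and Efna5 (0.11) over both arms. Without replicates numbered 3 of both arms, the sign turned for Efna3 (-0.012) and Efna5 (0.0057) within odor pools, Plxna1 (0.15) and Efna5 (0.089) within vehicle pools, Sema3f (-0.047) and Nrp2 (0.061) in the difference, Sema3a (-0.061) in GFP+ cells, Robo2 (-0.0085) in GFP- cells, Plxna1 (0.072) and Efna5 (0.047) over both arms. With array weights, the sign turned for Nrp2 (0.11) in the difference, Plxna3 (-0.042) and Efna3 (0.0080) in GFP+ cells, Robo2 (-0.030) in GFP- cells. With quantile normalization, the sign turned for Plxna3 (-0.0081) in GFP+ cells. Without 1 pool, values ran within odor pools from -0.012 to 0.18 for Efna3 and -0.19 to 0.0057 for Efna5. Without 1 pool, values ran within vehicle pools from -0.19 to 0.15 for Plxna1 and -0.14 to 0.089 for Efna5. Without 1 pool, values ran in the difference from -0.012 to 0.21 for Sema3f, -0.13 to 0.15 for Nrp2, -0.22 to 0.12 for Plxna1, -0.21 to 0.030 for Efna5 and -0.12 to 0.016 for Robo2. Without 1 pool, values ran in GFP+ cells from -0.039 to 0.32 for Sema3a, -0.15 to 0.18 for Plxna3, -0.033 to 0.031 for Efna3, -0.20 to 0.042 for Efna5 and -0.066 to 0.15 for Robo2. Without 1 pool, values ran in GFP- cells from -0.24 to 0.086 for Sema3a, -0.039 to 0.14 for Sema3f, -0.51 to 0.030 for Nrp2, -0.024 to 0.44 for Plxna3, -0.015 to 0.29 for Epha5, -0.17 to 0.089 for Efna5 and -0.048 to 0.16 for Robo2. Without 1 pool, values ran over both arms from -0.13 to 0.044 for Plxna1. The causes were not tested.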
